A study of Solanum lycopersicum with 30 samples.

Results

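The response of sun1-1 tomato leaves to tobacco mosaic virus (TMV) was compared with that of susceptible leaves 27 h after challenge, on 6 of the study's 30 2-colour arrays. The 3 sun1-1 arrays and the 3 susceptible arrays were taken by genotype and time from their titles, and a clone was kept when it had a value on at least 2 arrays of each genotype. This left 6126 of the 15360 clones on the array, of which 2642 had a value on all 6 arrays. Each array held a TMV sample labelled with Cy3 and a mock sample labelled with Cy5, both of 1 genotype at 1 time, so the value of a clone is the log2 ratio between a challenged and a mock-treated plant. Susceptible plants carried the n genotype. Sun1-1 is a mutant isolated in the N background and described by the submitters as more susceptible, and resistant N plants, with 4 arrays at 27 h, were also assayed. The plants, 28 to 35 days old, came from growth chambers kept at 25 °C (16 h light, 8 h dark), and both treatments were applied as leaf sap, with or without the virus. Each sample was the leaf tissue of 1 plant, from which 25 µg of total RNA was labelled. No value could be given to the mutated locus, which was not analysed here.

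TMV is a positive-strand RNA virus that replicates in the cytoplasm and moves from cell to cell. The N gene of tobacco encodes an intracellular receptor with a TIR domain, a nucleotide-binding domain and leucine-rich repeats, which recognises the helicase part of the viral replicase and starts a hypersensitive response. Receptors of this class act through the lipase-like protein EDS1, and sun1-1 is known as a mutation in tomato EDS1. The comparison of sun1-1 with susceptible plants therefore sets a genotype that carries the receptor, with impaired signalling below it, against one that lacks the receptor.

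The sign of a ratio is given as deposited. The titles name mock before TMV, which channel stood in the numerator was not given in the sources used here, and dyes were not exchanged on any array. A positive value means more signal in the numerator channel, and a positive difference means a higher ratio in sun1-1 than in susceptible leaves. A dye effect that is constant over arrays cancels in that difference. A ratio carries no level of either sample, so defining leaf markers could not be checked, and a change in the number of cells cannot be told apart from a change in RNA per cell. The column of sun1-1 replicate 2 had been deposited 1 row away from its place and was moved back by 1 row. The pattern of its empty cells did not settle whether they too were back in place. The 6 arrays gave values for 4967 to 9124 clones, and the paired spots of a clone had correlations of 0.696 to 0.916 over the clones of an array. Sun1-1 replicate 1 stood apart, with an SD of 0.69 over its log2 ratios and 12.5% of clones at 2-fold or more, whereas the other 5 arrays had SDs of 0.32 to 0.48 and 1.08% to 4.09% of clones at 2-fold or more. Correlations between arrays of 1 genotype were weak, from -0.11 to 0.37 in sun1-1 and from -0.13 to 0.10 in susceptible leaves.

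Single clones of VPE2, SKT3 and METK1, and 8 of 8 clones of LOC102577512, had higher ratios in sun1-1 than in susceptible leaves at 27 h, while 8 of 8 clones of GAPDH had lower ones, yet no clone passed the test. Clones of 1 gene are not replicates, and 39 of 68 symbols with at least 3 clones tested had all of them on 1 side of 0. Limma's moderated test with Benjamini-Hochberg adjustment called 0 of 6126 clones (0%) at an adjusted p under 0.05, with a lowest adjusted p of 0.108. At an unadjusted p under 0.05 there were 752 clones, or 12.3% of those tested, where that threshold alone gives 306.3. A fit of the 6 arrays alone gave 441 clones (7.20%). Of the 752, 436 (7.12% of the clones tested) had a higher ratio in sun1-1 and 316 (5.16%) a lower one. The median difference over all clones was 0.03, and 230 clones (3.75%) differed by 2-fold or more, 129 upward and 101 downward. Among the 2642 clones with all 6 arrays, the 3 sun1-1 values lay outside the range of the 3 susceptible values in 413 (15.6%), above it in 227 and below it in 186. When the clones of a symbol were averaged, 0 of 352 symbols were called (0%, lowest adjusted p = 0.161), 39 had an unadjusted p under 0.05 (11.1%), or 17 (4.83%) in a fit of the 6 arrays alone, and of 239 symbols with all 6 arrays 32 did not overlap (13.4%), 25 above and 7 below.

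The share of clones at an unadjusted p under 0.05 was 5.00% for sun1-1 minus susceptible at 3 h (341 of 6823) and 4.36% at 9 h (296 of 6790). Limma called 0 clones at either time (0%). Single arrays moved these counts too, from 108 without sun1-1 3 h replicate 3 to 701 without sun1-1 3 h replicate 1 at 3 h, and from 76 without sun1-1 9 h replicate 3 to 494 without sun1-1 9 h replicate 2 at 9 h. Sun1-1 3 h replicate 3 stood apart, with an SD of 1.35 and 40.1% of its 2635 clones at 2-fold or more. In fits of only the 6 arrays of a time, 218 clones (3.20%) at 3 h and 379 (5.58%) at 9 h had an unadjusted p under 0.05. The same fit gave 441 (7.20%) at 27 h. After scaling the arrays the shares were 4.66% at 3 h, 6.17% at 9 h and 9.60% at 27 h. The difference between the shares at 3, 9 and 27 h was not tested.

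**Figure D1:**
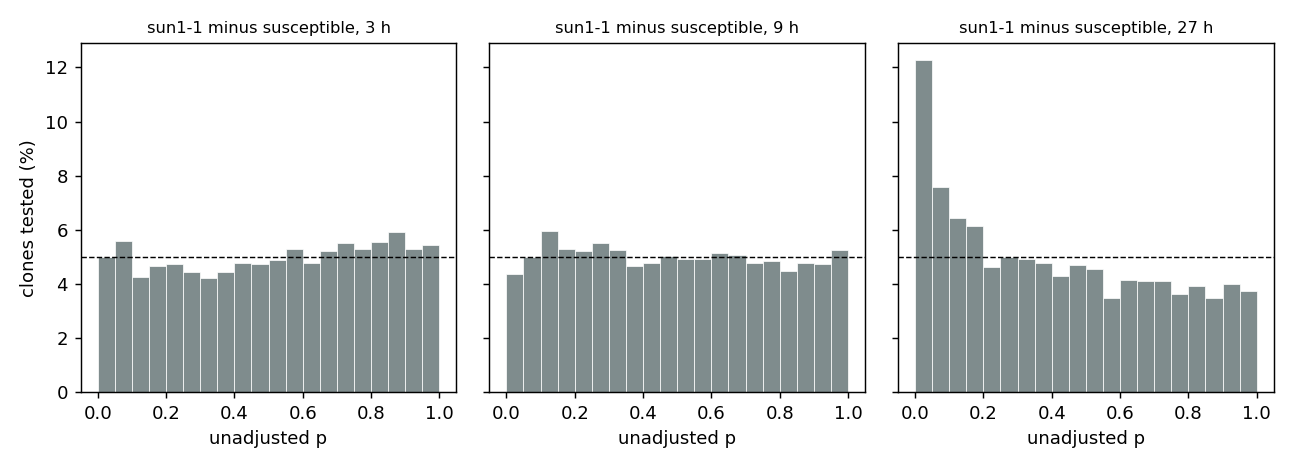
Histograms of the unadjusted p of limma's test for sun1-1 minus susceptible at 3, 9 and 27 h, in bins of 0.05, as a percentage of the clones tested; the dashed line marks the 5% that each bin would hold with no differences. The first bin holds 5.00%, 4.36% and 12.3% of the clones at 3, 9 and 27 h, from the fit of all 30 arrays.

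The count at 27 h depended on single arrays. Without sun1-1 replicate 1, the array of the widest spread, 458 clones (7.48%) had an unadjusted p under 0.05 and 0 were called. Without sun1-1 replicate 3, which left replicate 1 as 1 of 2 arrays, 1022 clones (16.7%) were below that limit and 111 were called. The number called was 1 without susceptible replicate 1 and 5 without susceptible replicate 2, and the fit of symbols called 6 without sun1-1 replicate 3. The number of symbols at an unadjusted p under 0.05 ran from 21 without sun1-1 replicate 1 to 69 without sun1-1 replicate 3.

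**Figure D2:**
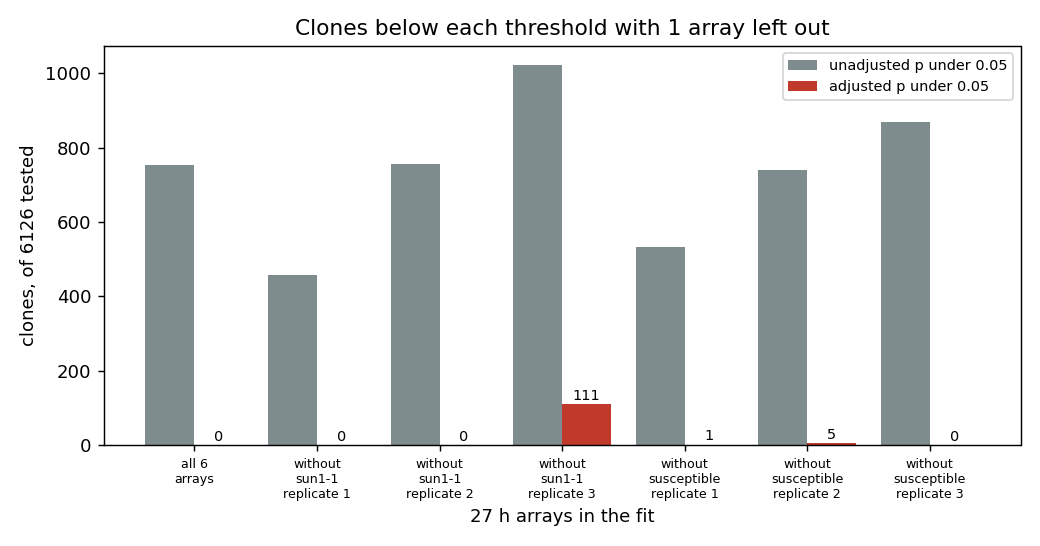
Number of clones below an unadjusted p of 0.05 (grey) and an adjusted p of 0.05 (red, printed above each bar) for sun1-1 minus susceptible at 27 h, with all 6 arrays and with each array left out in turn. The grey bars run from 458 without sun1-1 replicate 1 to 1022 without sun1-1 replicate 3, and the red bars from 0 to 111.

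The symbols named below come from the platform's annotation, which is built on potato genes. Its gene identifiers are those of potato, so none could be found in the tomato gene table (0 matched). That says nothing of which genes tomato has. A function given is that of the symbol, and LOC symbols have no name here. Of the clones tested, 637 carried 1 symbol, 314 with a positive and 323 with a negative difference. The 20 symbols with the smallest p are described by their clone of smallest p. Their differences were positive for 17 and negative for 3, and none passed the adjustment over all clones. Since they were chosen for small p in this comparison, their values are a description.

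The furthest apart was VPE2, a vacuolar processing enzyme, a cysteine protease of the vacuole with caspase-like activity that in Nicotiana benthamiana carrying N is needed for the cell death that follows TMV. Its clone had log2 ratios of 3.74 and 1.17 on sun1-1 replicates 1 and 3 and no value on replicate 2, against 0.17, -0.76 and -0.89 on the susceptible arrays. Both sun1-1 values were above all 3 susceptible values, and the 2 differed widely from each other. The difference of means was 2.95 (SE 0.75, adjusted p = 0.117 by limma), and it was 1.66 without sun1-1 replicate 1, which left 1 sun1-1 array. The other clone of VPE2 gave -0.28, -0.40 and -0.36 in sun1-1 and -0.58 and -0.02 in susceptible leaves. That clone differed by -0.05 between genotypes, so the pair of VPE2 clones disagreed. Averaged on each array over the clones with a value there, VPE2 differed by 0.90 (SE 0.60). In that average, sun1-1 replicate 2 (-0.40) came from the other clone alone and susceptible replicate 1 (0.17) from the first alone.

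LOC102577637 was high on the same arrays. Its clone gave 3.37 and 0.91 on sun1-1 replicates 1 and 3, with no value on replicate 2, and -0.18, -0.12 and -0.34 on the susceptible arrays. The genotypes did not overlap, and the difference was 2.35 (SE 0.56, adjusted p = 0.108) or 1.13 without sun1-1 replicate 1. All 3 clones of the symbol had positive differences, from 0.60 to 2.35. The other clones were at 3.09 and 1.28 on sun1-1 replicate 1, but at 0.21 and -0.23 on replicate 2. The value of 0.21 lay above the highest susceptible value of its clone (-0.14), and that of -0.23 lay within the susceptible range.

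LOC102581985 had the closest clones among the 20 symbols with more than 1. Its leading clone measured 1.48, 1.22 and 0.45 in sun1-1 and -0.14, -0.53 and 0.14 in susceptible leaves. Every sun1-1 array was above every susceptible array, and replicate 1 did not stand alone. The difference was 1.22 (SE 0.31, adjusted p = 0.108), the other clones differed by 1.12 and 1.13, and leaving out 1 of the 6 arrays gave 1.01 to 1.52. The resistant mean was 0.16 (SD 0.50, n = 4), and in the fit of symbols this symbol had the smallest p (difference 1.16, SE 0.29, adjusted p = 0.161).

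METK1, an S-adenosylmethionine synthetase that makes the methyl donor and ethylene precursor S-adenosylmethionine, had 9 clones, 8 with a positive difference and 1 with a negative one. They ran from -0.20 to 1.09, and 6 of the 9 had an unadjusted p under 0.05, beside 12.3% of all clones. The clones of a gene report on the same RNA samples and are not replicates. Averaged over its clones, METK1 measured 0.68, 0.37 and 0.30 in sun1-1 and 0.19, -0.14 and -0.55 in susceptible leaves. The 3 sun1-1 values lay above the 3 susceptible values, with a difference of 0.62 (SE 0.26, adjusted p = 0.300 over symbols).

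LOC102577512 had 8 clones, all with a positive difference, from 0.27 to 1.03. An unadjusted p under 0.05 was found for 6 of them, beside 7.12% of all clones on the positive side. These clones, too, report on the same RNA samples and are not replicates. The average of LOC102577512 measured 0.68, 0.20 and 0.16 in sun1-1 and -0.61, -0.00 and -0.54 in susceptible leaves. The groups did not overlap, sun1-1 replicate 1 was the highest and susceptible replicate 2 the closest to sun1-1, and the difference was 0.73 (SE 0.24, adjusted p = 0.161 over symbols).

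RGGA, an RNA-binding protein with arginine-glycine repeats, had 4 clones, all positive, from 0.14 to 0.68. Averaged over its clones, RGGA measured 0.76, -0.30 and -0.08 in sun1-1 and 0.05, -0.28 and -0.40 in susceptible leaves. The ranges overlapped, and the difference was 0.34 (SE 0.21, adjusted p = 0.508 over symbols). In that average, sun1-1 replicate 2 came from the clone of smallest difference alone. Its leading clone gave 0.96 and 0.06 on sun1-1 replicates 1 and 3 and -0.16, -0.11 and -0.23 on the susceptible arrays. The value close to 1 came from sun1-1 replicate 1 alone, and the difference of 0.68 (SE 0.21) was 0.22 without it. SKT3, a potassium channel subunit, gave 1.48 and 0.26 on the same pair of sun1-1 arrays and -0.61, 0.01 and 0.04 in susceptible leaves. Its difference of 1.05 (SE 0.32) was 0.44 without sun1-1 replicate 1.

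GAPDH, the glycolytic glyceraldehyde-3-phosphate dehydrogenase, ran the other way. All 8 of its clones had negative differences, from -0.64 to -0.19, and 3 had an unadjusted p under 0.05, beside 316 negative clones among all 6126 (5.16%). The 8 clones report on the same RNA samples and are not replicates. In 4 of the 7 with all 6 arrays the sun1-1 values lay wholly below the susceptible values, beside 186 of all 2642 such clones. Averaged over clones, GAPDH measured -0.34, -0.18 and -0.06 in sun1-1 and 0.34, 0.53 and -0.14 in susceptible leaves. Susceptible replicate 3 fell inside the sun1-1 range, and the difference was -0.43 (SE 0.21, adjusted p = 0.438 over symbols). The resistant mean of 0.21 (SD 0.28, n = 4) was close to the susceptible mean of 0.24 (SD 0.34, n = 3). The differences between sun1-1 and susceptible leaves at 3 h and 9 h were -0.00 and 0.03.

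**Figure D3:**
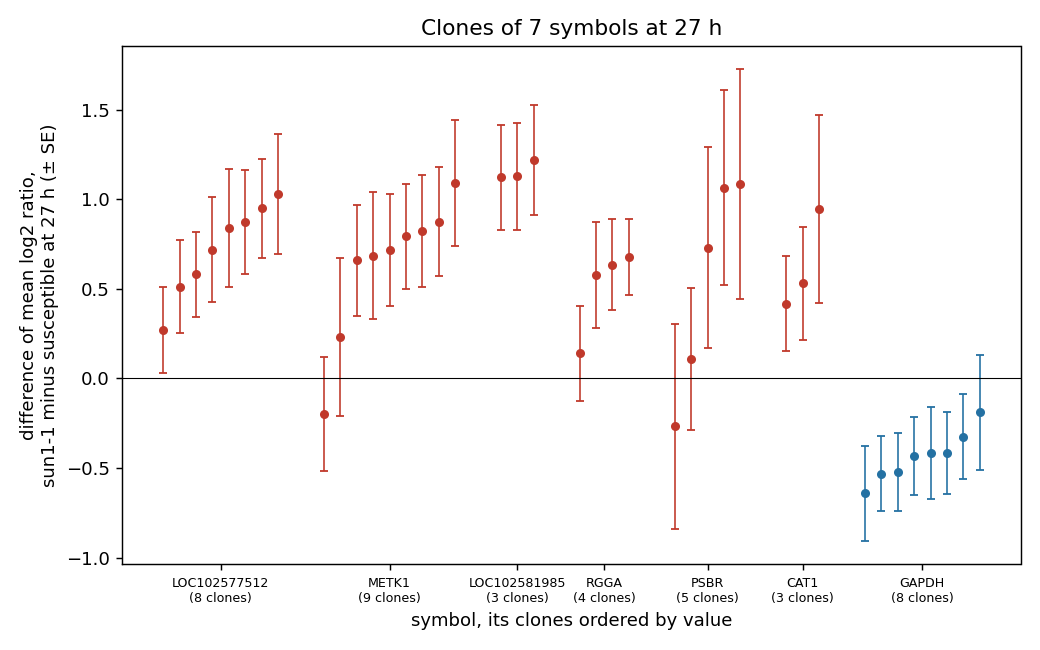
Difference of the mean log2 ratio, sun1-1 minus susceptible at 27 h, for each clone tested of 7 symbols, with its SE; clones of a symbol are ordered by value, and the symbols were chosen for the plot after their values were seen. All 8 clones of LOC102577512 lie above 0 (0.27 to 1.03), METK1 has 8 of 9 above 0, and all 8 clones of GAPDH lie below 0 (-0.64 to -0.19).

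Over all symbols with at least 3 clones tested, 39 of 68 had all their clones on 1 side of 0, 22 on the positive and 17 on the negative side. The median range between clones of 1 symbol was 0.44.

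The rest of the 20 symbols carry no name. LOC102577567 had the narrowest sun1-1 values among those with a difference over 1, at 0.62, 0.71 and 0.73, against -0.14, -1.01 and -0.53 in susceptible leaves. Its 3 clones differed by 0.73 to 1.25. LOC102601763 gave 0.23, 0.32 and 0.18 against -0.23, -0.33 and -0.52, a small difference of 0.60 (SE 0.18) with little spread in either genotype. Its resistant mean of 0.30 (SD 0.14, n = 4) was close to sun1-1. LOC102584168 had no value on sun1-1 replicate 1 and gave 0.30 and 0.51 on the other sun1-1 arrays, against -0.03, -0.37 and -0.41. Among all 20, this was the clone whose difference, 0.67 (SE 0.22), owed nothing to the array of the widest spread.

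LOC102577840 measured 1.65, 0.71 and 0.30 in sun1-1 and -0.20, -0.18 and -0.29 in susceptible leaves. LOC102577743 and LOC102577475 had differences of 1.07 and 1.15, and in both the largest contrast was between sun1-1 replicate 1 (1.45 and 1.42) and susceptible replicate 1 (-1.10 and -1.64). LOC102596783 gave 2.18 and 0.29 on sun1-1 replicates 1 and 3, and its difference of 1.16 became 0.21 without replicate 1. The differences were 0.98 for LOC102596498, 0.83 for LOC102592556, whose 4 clones were all positive, and 0.77 for LOC102577612, whose 2 clones were both positive. LOC102596978, named by the fit of symbols, had 3 clones at 1.26 to 1.41. Its averages were 2.32, 0.78 and 0.21 in sun1-1 and -0.18, -0.17 and -0.16 in susceptible leaves.

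The 3 negative symbols were LOC102580103, LOC102577558 and LOC102593050. LOC102580103 gave -1.03 and -0.28 on sun1-1 replicates 1 and 3 and 0.33, 0.04 and 0.51 in susceptible leaves, a difference of -0.95 (SE 0.24). Of its 5 clones 4 were negative, each with an unadjusted p under 0.05, beside 5.16% of all clones on the negative side. LOC102577558 gave -0.69, -0.60 and -0.45 against 0.46, 0.62 and 0.02, without overlap, but its clones fell into 3 with negative and 2 with positive differences, from -0.95 to 0.68. The positive pair was highest on sun1-1 replicate 1, at 2.64 and 2.79. LOC102593050 differed by -0.80 (SE 0.25), and both of its clones were negative.

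**Figure D4:**
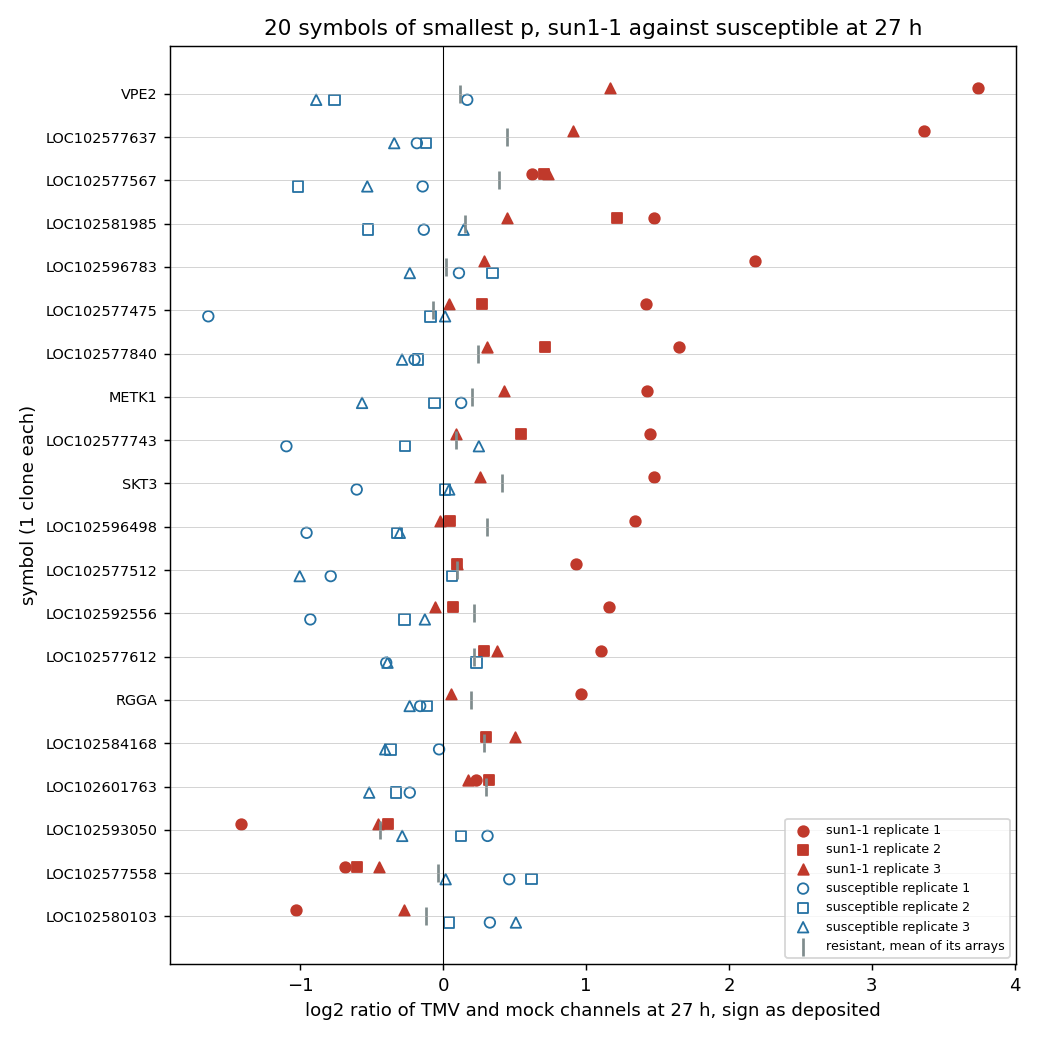
Log2 ratio on each 27 h array, sign as deposited, for the 20 symbols of smallest p, 1 clone each; red filled symbols are sun1-1 arrays, blue open symbols susceptible arrays (circle, square and triangle for replicates 1, 2 and 3) and the grey bar the mean of the resistant arrays. In 18 of the 20, which were chosen for small p, the values present do not overlap between genotypes, beside 1291 of all 6126 clones, and sun1-1 replicate 1 is the sun1-1 array furthest from the susceptible mean in 17.

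Sun1-1 replicate 1 was the sun1-1 array furthest in the direction of the difference for 17 of these 20 clones, and for 3269 of all 6126 clones tested. The wide spread of that array was addressed by leaving it out, by scaling the arrays to a common spread and by array quality weights. Its weight was 0.23. At 27 h, 588 clones (9.60%) had an unadjusted p under 0.05 after scaling and 665 (10.9%) with weights, beside 752 (12.3%) in the main fit. What the spread contributed to single values was not tested further. Every one of the 20 kept its sign when any of the 6 arrays was left out.

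Genes of defence and metabolism were also followed by lists of symbols, whatever their values. Of the signalling list, which held components of the N pathway, kinases and transcription factors, 2 clones could be tested and both were negative. STWRKY8, a WRKY transcription factor, gave -1.86 and 0.42 on sun1-1 replicates 1 and 3 against 0.52, 0.36 and -0.36. One sun1-1 value lay below the susceptible range and the other inside it, and the difference of -0.89 (SE 0.56) was not called. CDPK2, a calcium-dependent protein kinase, differed by -0.35 (SE 0.23).

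The pathogenesis-related list had 3 clones, all with differences above 0 and none with an unadjusted p under 0.05. The 2 clones of PR1B, a protein of the PR-1 family, differed by 0.30 and 0.36, with SEs of 0.80 and 0.72. Averaged, PR1B measured 0.01, -0.11 and 0.69 in sun1-1 and -0.20, -0.86 and 0.65 in susceptible leaves. Its spread within each genotype was larger than the difference between them. RSI5 ran from -1.18 to 1.12 over the sun1-1 arrays and differed by 0.04 (SE 0.61).

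Among antioxidant enzymes, 7 clones were tested, 5 positive and 2 negative. CAT1, a catalase that breaks down hydrogen peroxide, had 3 clones at 0.42 to 0.94, and its average was 0.88, 0.30 and 0.14 in sun1-1 and 0.31, -0.72 and -0.06 in susceptible leaves. The ranges overlapped and the difference was 0.59 (SE 0.26, adjusted p = 0.352 over symbols). DHAR2, a dehydroascorbate reductase that regenerates ascorbate, had 2 clones, both negative, at -0.86 and -0.44. Its averages of 0.17, -0.60 and -0.18 in sun1-1 and 0.34, 1.05 and -0.07 in susceptible leaves overlapped, with susceptible replicate 2 the highest. DHAR differed by 0.27 and GRX2, a glutaredoxin, by 0.10.

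PSBR, a subunit of the oxygen-evolving side of photosystem II, had 5 clones tested, 4 positive and 1 negative, from -0.27 to 1.08, none with an unadjusted p under 0.05. Its average was 0.28, 0.36 and 0.23 in sun1-1 and -0.91, -0.74 and 0.22 in susceptible leaves. The sun1-1 arrays were close together and susceptible replicate 3 lay beside them, while susceptible replicates 1 and 2 lay below, for a difference of 0.77 (SE 0.47). F3H, flavanone 3-hydroxylase, was positive on 5 of the 6 arrays, at 2.16, 0.52 and 0.99 in sun1-1 and -0.16, 0.74 and 0.95 in susceptible leaves, and differed by 0.71 (SE 0.46). FLS, flavonol synthase, had 4 clones from -0.46 to 0.67.

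HPL, the hydroperoxide lyase that forms leaf aldehydes from lipid peroxides, had 2 positive clones at 0.35 and 0.51, and PPO, polyphenol oxidase, 1 of each sign at -0.19 and 0.25. PHA1, a proton-pumping ATPase of the plasma membrane, gave 0.08 and 0.25 on sun1-1 replicates 1 and 3 and 0.05, -0.52 and -1.14 in susceptible leaves, a difference of 0.70 (SE 0.28). Its relative PHA2 had 3 clones between -0.15 and 0.11. Starch genes had 5 clones between -0.29 and 0.47, and ARD and SRE1A 4 clones between -0.04 and 0.26. None of the clones of these lists was called. Across all 116 tested clones whose symbol is a name, 67 were positive and 49 negative with a median of 0.10, beside 0.03 for all clones. Lists for virus replication and silencing and for tuber storage proteins matched no symbol (0 clones).

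Most of the array carries no symbol, and the 5 clones of smallest p there were 4 with a lower and 1 with a higher ratio in sun1-1. Spot 150387 measured -0.63, -0.81 and -0.89 in sun1-1 and 0.99, 0.45 and 0.79 in susceptible leaves. Spot 148654 measured -0.97, -0.81 and -0.52 against 0.99, 0.76 and 0.40, and spot 136986 measured -1.09, -0.69 and -0.38 against 1.06, 0.72 and 0.41. In these 3 clones all sun1-1 arrays were negative and all susceptible arrays positive, with differences of -1.52 (SE 0.33), -1.48 (SE 0.33) and -1.45 (SE 0.33), each with an adjusted p of 0.108. Their resistant means lay between the other genotypes, at -0.04, -0.11 and -0.17. Spot 153635 differed by -1.49 (SE 0.28) with no value on susceptible replicate 3. The positive one of the 5, spot 140461, gave 1.24 and 0.46 on sun1-1 replicates 1 and 3 against -1.01, -0.56 and -0.24, a difference of 1.46 (SE 0.30).

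The difference at 27 h was also tested against the mean of the differences at 3 h and 9 h, which used all 18 sun1-1 and susceptible arrays. Limma called 32 of 5225 clones (0.612%), 15 upward and 17 downward, the lowest adjusted p being 0.016. An unadjusted p under 0.05 was found for 838 clones (16.0%). Only 2 of the 32 carried a symbol. VPE2 had differences of -1.35 at 3 h, -1.55 at 9 h and 2.95 at 27 h, a contrast of 4.40 (adjusted p = 0.037). The other clone of VPE2 had a contrast of 0.02 (SE 0.43, adjusted p = 0.985). LOC102577637 had differences of -0.73, -0.49 and 2.35, a contrast of 2.97 (SE 0.66, adjusted p = 0.039). With the clones of a symbol averaged, the contrasts were 1.89 (SE 0.73, adjusted p = 0.168 over symbols) for VPE2 and 1.71 (SE 0.53, adjusted p = 0.087) for LOC102577637. On sun1-1 27 h replicate 2 these averages, -0.40 and -0.01, held only the other clones, since both called clones had no value there. Without sun1-1 27 h replicate 1, the called clones were left with 1 sun1-1 array at 27 h. Their contrasts were then 3.11 for VPE2 and 1.74 for LOC102577637.

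Among the 30 other clones called, the largest contrasts belonged to spot 150395 (3.21, with a 27 h difference of 2.48) and spot 137182 (-2.99, with a 27 h difference of -2.03), named after their values were seen. In all 32 the difference at 27 h had the opposite sign to those at 3 h and 9 h, which the contrast favours by its construction. Of the 32, 11 had no value on sun1-1 27 h replicate 2. The next symbols by p were LOC102577512 (contrast 1.45), LOC102580103 (-1.17) and LOC102597649 (1.26), each with an adjusted p of 0.056.

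**Figure D5:**
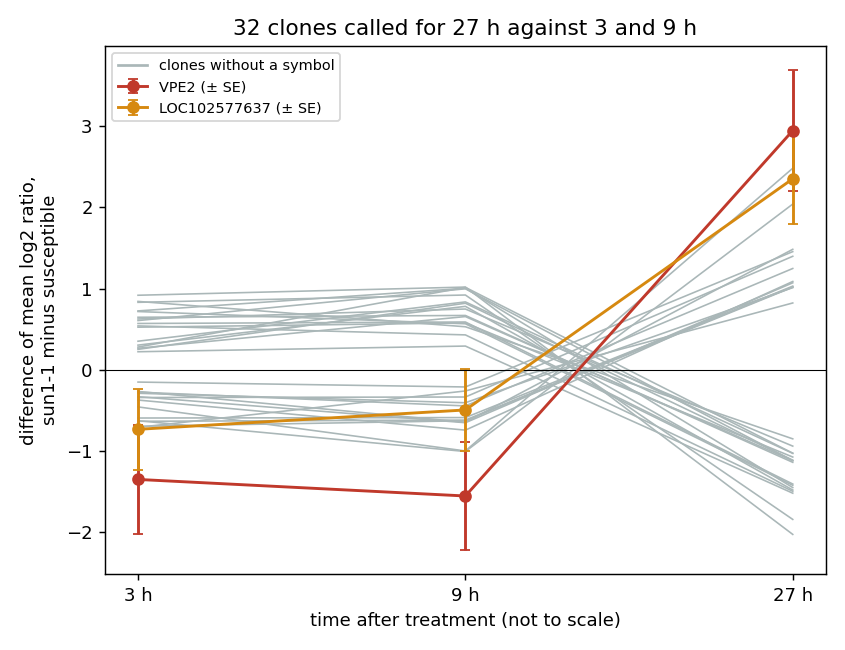
Difference of the mean log2 ratio, sun1-1 minus susceptible, at 3, 9 and 27 h for the 32 clones called in the contrast of 27 h with the earlier times; grey lines are clones without a symbol, and VPE2 and LOC102577637 are coloured with their SE at each time. VPE2 goes from -1.35 and -1.55 to 2.95, and LOC102577637 from -0.73 and -0.49 to 2.35.

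The number called moved with single arrays. It was 0 without sun1-1 27 h replicate 1 or susceptible 27 h replicate 1. It was also 0 when only these 18 arrays were fitted (lowest adjusted p = 0.077). With sun1-1 27 h replicate 2 as deposited, 1 row out of place and so no test of stability, it was 0 (lowest adjusted p = 0.070). It was 2 without susceptible 3 h replicate 2, susceptible 3 h replicate 3, sun1-1 9 h replicate 3 or susceptible 9 h replicate 1. It was 10 without sun1-1 9 h replicate 1, 15 without sun1-1 3 h replicate 1, 17 without susceptible 9 h replicate 3 and 18 without sun1-1 27 h replicate 2. It was 87 without sun1-1 9 h replicate 2 and 204 without sun1-1 27 h replicate 3. The remaining single arrays left it between 32, without sun1-1 3 h replicate 3, and 46, without susceptible 27 h replicate 2.

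Resistant plants share the N gene with sun1-1, and their arrays at 27 h allow the same sun1-1 arrays to be set against them. By limma 0 of 6344 clones were called (0%), the lowest adjusted p was 0.895, and 334 clones (5.26%) had an unadjusted p under 0.05. That number was 180 (2.84%) in a fit of the 7 arrays alone. It ran from 183 (2.88%) without resistant replicate 2 to 698 (11.0%) without sun1-1 replicate 3. The resistant arrays also differed from one another, with correlations from -0.39 between replicates 1 and 2 to 0.47 between replicates 2 and 4. The count was 44 without sun1-1 27 h replicate 3 and 0 without any other single array of the comparison. For resistant replicate 4 the protocol of the TMV channel names 9 h, while its title gives 27 h. Both comparisons use the sun1-1 arrays, so their values are given side by side only. The clone of VPE2 differed by 2.95 from susceptible and by 2.33 (SE 0.71) from resistant leaves, that of LOC102577637 by 2.35 and 1.69 (SE 0.53), and that of LOC102596783 by 1.16 and 1.21. METK1, averaged over its clones, differed by 0.62 and 0.43. GAPDH, averaged in the same way, differed by -0.43 and -0.41. LOC102577512, in contrast, differed by 0.73 from susceptible and by 0.18 from resistant leaves, whose mean was 0.17 (SD 0.21, n = 4). The resistant mean lay between the other genotypes' means for 18 of the 20 symbols of smallest p and for 2707 of 6054 clones in all (44.7%), a count that the choice of clones far apart favours.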

How the data were processed

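The authors deposited log2 ratios between the 2 channels of an array, centred near 0. The submitters' processing notes name limma with no version, and the sources used here give neither the background correction nor the filter that emptied cells. Base 2 was inferred from the values: 100% of 5154 values at or below -1 lay within 0.002 of the log2 of a 2-decimal ratio. Duplicate spots of a clone were averaged. The clones of a symbol were averaged on each array over those with a value, so arrays can differ in the clones averaged. Sun1-1 27 h replicate 2 was moved by 1 row, which raised its mean absolute r with the others from 0.0115 to 0.172. Its pattern of empty cells matched the other arrays about equally before (r = 0.376) and after the move (r = 0.407). A cell empty on this array may therefore be out of place.

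With R 4.3.3 and limma 3.58.1, moderated linear models with 1 mean for each of 9 groups were fitted to all 30 arrays (prior degrees of freedom 5.60, prior SD 0.33). Adjustment was by Benjamini and Hochberg over all clones of a comparison, with a threshold of 0.05. The fit was tested on simulated data. An SE assumes equal spread in all groups. Replicates are single plants, and the number of arrays limits the precision. The labels give no batch.

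Named clones were those called, the 20 symbols and 5 clones without symbol of smallest p at 27 h, 5 and 3 symbols for the 2 further contrasts, 10 symbols from the fit of symbols, and all clones matching 14 symbol lists. Members and lists were chosen with earlier results of these data known. Alternatives covered centring, scaling, array weights, moderation, spots, clone filters, a replicate block and leaving out each array; a group then left with 1 value for a clone was assumed to vary like the others.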

Additional observations from a re-analysis of the deposited data

Results flagged for a closer look

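The contrast of the 27 h difference with the 3 h and 9 h differences called 32 clones by limma, a test of the difference between times. The calls were lost, with 0 left, with the replicate number as a block and with only the arrays compared (lowest adjusted p of 0.072 and 0.077). With sun1-1 27 h replicate 2 as deposited, 0 were left too (lowest adjusted p of 0.070). That setting gives each clone the value of another spot, so it cannot test how stable the calls are. The clone of VPE2 had a contrast of 4.40 (adjusted p = 0.037) and that of LOC102577637 a contrast of 2.97 (adjusted p = 0.039). Array quality weights, 0.23 for sun1-1 27 h replicate 1, gave 3.13 (adjusted p = 0.065 by limma) and 1.72 (adjusted p = 0.116). Scaled arrays gave 3.72 (adjusted p = 0.024 by limma) and 2.16 (adjusted p = 0.079). Neither clone had a value on sun1-1 27 h replicate 2, so there the average of each symbol held only its other clones. The other clone of VPE2 had a contrast of 0.02, and with clones averaged neither symbol passed (adjusted p = 0.168 for VPE2 and 0.087 for LOC102577637). Their adjusted p ran from 0.003 to 0.208 and from 0.002 to 0.294 over the alternatives.

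On the resistant 27 h arrays the clone of LOC102577558 had 1 value apart from the others, 0.25 against -0.15, -0.14 and -0.12. Dixon's criterion was applied to 22 named clones with 4 resistant values, and about 1 in 20 would pass by chance.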

How the results depend on the processing

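For sun1-1 minus susceptible at 27 h, 0 clones were called under median centring, scaling, the replicate block, fits of the 6 arrays alone, complete clones, symbol clones alone, other moderation, single spots and the deposited position of sun1-1 replicate 2. Array quality weights called 1, and leaving out 1 array gave 0 to 111 clones and 0 to 6 symbols. The contrast of 27 h with 3 and 9 h (32 clones) gave 16 with array quality weights, 0 with the replicate block, 0 with only the arrays compared, 0 with sun1-1 27 h replicate 2 as deposited, and 0 to 204 with 1 array left out. The deposited position gives each clone of sun1-1 27 h replicate 2 the value of another spot, so its counts cannot test stability. Leaving out 1 array gave 0 to 5 calls at 3 h, 0 to 1 at 9 h and 0 to 44 for sun1-1 minus resistant. The cause of these shifts was not tested. Same-numbered replicates of the 2 genotypes tended to deviate in opposite directions (r = -0.278, -0.326 and -0.257 over 2642 clones). Pairs of different numbers had r from -0.014 to 0.28. The numbers therefore did not mark replicates that vary alike, and the replicate block is a hint only. The block lowered the clones at an unadjusted p under 0.05 at 27 h from 752 to 664. No sign reversed among the tested named clones. Since no pair of arrays within either genotype correlated under -0.3 at 27 h, the planned reading with signs turned gave no value.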
